A study of Mus musculus with 192 samples.

Results

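The 14-3-3 gene family of the mouse has 7 members, Sfn (the sigma protein), Ywhab (beta), Ywhae (epsilon), Ywhag (gamma), Ywhah (eta), Ywhaq (theta) and Ywhaz (zeta). All 7 were found by name among the 24264 gene features of a table of mRNA molecules counted in 96 wells of mouse embryonic stem (ES) cells, of which 14304 features had at least 1 molecule. The family was selected on the spread of Sfn between these wells, measured as its noise ratio against spike-in RNAs. That spread is therefore given as a description, and no test rests on it.

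The cells were of the R1 mouse ES line, grown on irradiated embryonic fibroblast feeders that were left to settle out after trypsin. Dead and early apoptotic cells were removed with annexin V beads, and the suspension was frozen and later thawed onto a C1 microfluidic chip that holds a cell in each capture chamber. All wells came from 1 culture with no treatment, so there was 1 biological sample and wells give neither p-values nor standard errors. The cDNA was amplified for 21 PCR cycles, and each cell barcode belonged both to the library as made and to the same library after 9 added cycles, so these library forms were not compared. Empty chambers and chambers with more than 1 cell were not identified here. A molecule was counted once whatever the length of its gene, and every level below is a number of molecules per 10000 gene molecules of the well, with spike-in RNAs and repeat features left out of that total.

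The wells fell into a group of 45 low-RNA wells with 8774 to 35543 gene molecules (median 22234) and a group of 51 RNA-rich wells with 51390 to 573648 (median 98750), with none between. Mitochondrial genes held a median of 29.1% of the gene molecules in low-RNA wells and 10.4% in RNA-rich wells. Of the RNA-rich wells, 40 grouped together with ES cell markers at a median sum of 115 molecules per 10000, from 20 of 20 listed markers, and are called ES cell-like (2 low-RNA wells fell in the same group). A separate group of 9 RNA-rich wells was led by Igf2, Krt8, Anxa1, Krt18 and Anxa5 and is called keratin-led here. Well E02 stood alone with feeder fibroblast genes at a sum of 153, and D02, placed with the keratin-led wells, had a sum of 175, while no other well exceeded 62.7. Well H08 grouped with the low-RNA wells. Wells C03, H03 and H12 stood apart by their spike-in totals of 36465, 55740 and 926 molecules, against medians of 6098 in low-RNA and 7992 in RNA-rich wells. At the edge of the classes, the low-RNA well with the most molecules, G02, had 0 Sfn, and the RNA-rich well with the fewest, A11, had 4.48 Sfn molecules per 10000.

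14-3-3 proteins are small, acidic adaptor proteins that bind phosphorylated serine or threonine on other proteins and so hold enzymes, transcription factors and cell cycle regulators in a given place or state. They act as dimers, and most members are made in nearly every tissue. Sfn differs in this respect: its product, also known as stratifin, is known mainly from epithelia, was described as a target of p53 that holds the cell cycle before mitosis, and is needed for normal differentiation of mouse skin.

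The promoter sequences of 5 members, Sfn, Ywhae, Ywhag, Ywhah and Ywhaq, were matched in RefSeq (GRCm38.p6), as 250 bases before and 50 after the start of the gene in RefSeq, which can differ from the GENCODE start given below. Those of Sfn and Ywhae are shown because they were the most and the least variable member between RNA-rich wells. Both are written 5′ to 3′ on the strand of the gene, with every CG pair in capitals. In GENCODE, Sfn lies on the minus strand of chromosome 4 from 133600556 to 133602168, in a single exon, and its window is chr4:133602119-133602418. Ywhae lies on the plus strand of chromosome 11 from 75732869 to 75765845, and its window is chr11:75732637-75732936.
Sfn: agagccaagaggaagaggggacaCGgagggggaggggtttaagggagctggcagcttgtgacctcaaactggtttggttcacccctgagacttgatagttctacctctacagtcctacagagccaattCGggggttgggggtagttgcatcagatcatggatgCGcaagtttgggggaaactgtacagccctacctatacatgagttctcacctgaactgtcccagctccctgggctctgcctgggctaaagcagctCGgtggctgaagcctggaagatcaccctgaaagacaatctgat
Ywhae: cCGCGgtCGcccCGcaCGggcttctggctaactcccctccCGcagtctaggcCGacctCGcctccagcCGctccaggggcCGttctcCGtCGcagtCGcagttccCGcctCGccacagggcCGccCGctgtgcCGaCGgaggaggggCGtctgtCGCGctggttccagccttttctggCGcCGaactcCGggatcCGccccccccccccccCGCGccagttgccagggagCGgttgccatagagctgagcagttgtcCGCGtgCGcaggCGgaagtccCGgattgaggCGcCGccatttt
The Sfn window held 4 CG pairs and 54% G or C, and 38% of the 32851 promoters in the table had as few pairs. The Ywhae window held 36 CG pairs, a number reached by 6.23% of promoters. Ywhah had 38, Ywhaq 30 and Ywhag 23 pairs, and the median promoter had 7. Of 5 motifs searched on both strands, only CCAAT was found in the Sfn window, once, and 37.4% of promoters hold it. The GC box GGGCGG, in 35.7% of promoters, was found at 2 places in Ywhae, 4 in Ywhag and 6 in Ywhah. The TATA box TATAAA (13.6% of promoters) and the cyclic AMP response element TGACGTCA (1.79%) each had 1 match, both in Ywhah, and the AP-1 motif TGANTCA (7.81%) had none in the 5 windows. CCAAT had 1 further match in Ywhag and 2 in Ywhaq. None of the 5 motifs contains another. These matches describe letters in a window of fixed length and not bound sites.

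The 7 genes gave 15287 molecules over the 96 wells. Ywhae held 33.7% of them, Ywhaq 17.0%, Ywhaz 16.6%, Sfn 14.9%, Ywhag 8.60%, Ywhab 5.06% and Ywhah 4.19%. Reads with several matches in the genome had been placed at their most 5′ exonic match, and the members differed in how far they rest on such reads. Molecules from uniquely mapped reads made up 84.6% of the Sfn molecules, 93.9% for Ywhab, 99.3% for Ywhae and 100% for Ywhag, but 62.4% for Ywhaz, 37.5% for Ywhah and 34.9% for Ywhaq. The levels of Ywhah and Ywhaq are uncertain for this reason, and the annotation names 3 Ywhaq pseudogenes.

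Sfn was present in most wells at a low level and in a few at a very high one. In the 45 low-RNA wells its level had a lowest value of 0, a median of 0.976 and a highest of 6.15, and 39 wells had a molecule. In the 51 RNA-rich wells it had a lowest value of 0.184, a median of 1.22 and a highest of 25.6, and every well had a molecule. The classes overlapped over the whole low-RNA range above 0.184, and they differed mainly at the top: 3 low-RNA wells and 12 RNA-rich wells reached a level of 5. Levels under 1 were found in 24 low-RNA and 21 RNA-rich wells.

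The highest wells were C02 with 283 Sfn molecules of 110409 gene molecules (a level of 25.6), A09 with 123 of 61256 (20.1) and G12 with 224 of 148459 (15.1). They were followed by H05 at 12.1, A06 at 11.9, D08 at 10.1 and B07 at 8.92. None of these was among the wells with an outlying spike-in total: the 10 RNA-rich wells with the most Sfn had 7004 to 9034 spike-in molecules. The highest low-RNA wells were D10 with 13 molecules (6.15), E06 with 13 (5.59) and G01 with 10 (5.25). The 5 highest RNA-rich wells held 45.4% of the summed Sfn level of their class and the 10 highest 66.9%, against 13.4% and 25.2% for the same share of Ywhae in its own highest wells.

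**Figure D1:**
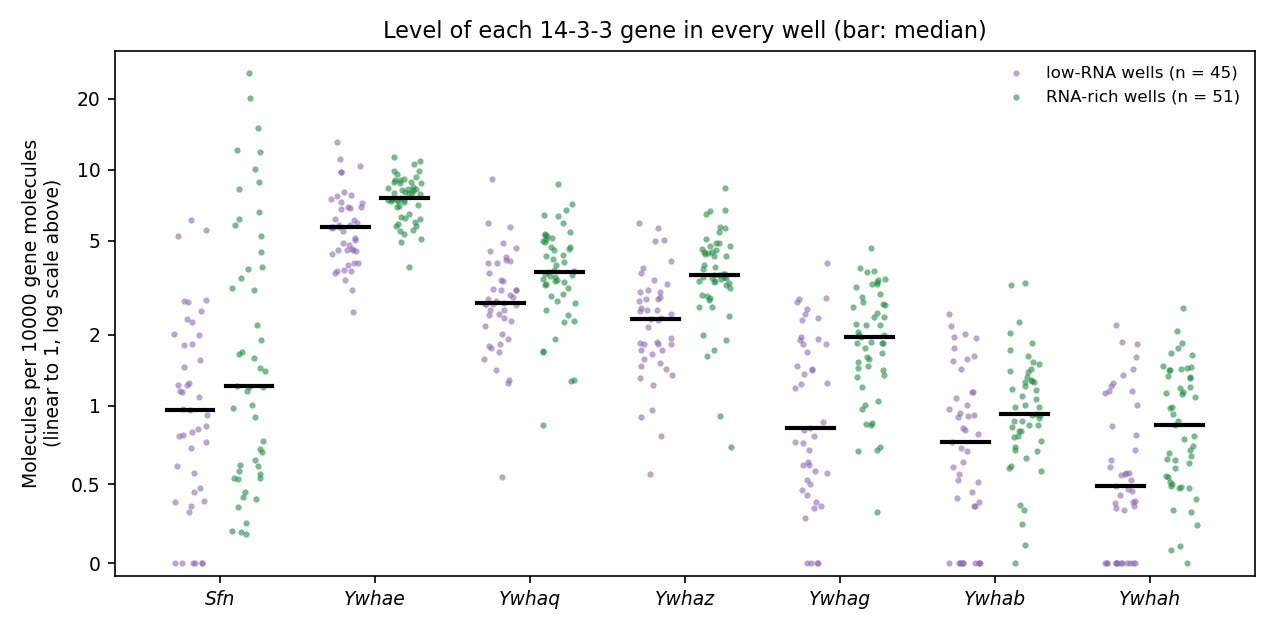
Level of each 14-3-3 gene in every well, in molecules per 10000 gene molecules (vertical axis linear up to 1 and logarithmic above), with low-RNA wells (purple, n = 45) left of RNA-rich wells (green, n = 51) and a bar at the median. Sfn runs from 0.184 to 25.6 in RNA-rich wells while its medians in the classes are 0.976 and 1.22. Ywhae stays between 3.86 and 11.3 in RNA-rich wells.

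Among the widely expressed members, Ywhae was the most abundant and the steadiest. Ywhae, whose loss is known to disturb neuronal migration in mice, ran from 2.50 over a median of 5.71 to 13.1 in low-RNA wells and from 3.86 over 7.63 to 11.3 in RNA-rich wells. It was the most abundant family member in 38 of 45 low-RNA wells, in F03 tied with Ywhaq. The same held in 37 of 51 RNA-rich wells, not counting G10, where Ywhae tied with Sfn. Its ranges in the classes overlapped nearly throughout.

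Ywhaq and Ywhaz formed the next step. Ywhaq, known also from T cells as the tau form, ran from 0.545 over a median of 2.73 to 9.19 in low-RNA wells and from 0.878 over 3.68 to 8.71 in RNA-rich wells. Its low-RNA maximum was well H12, which had the outlying spike-in total of 926. Ywhaz, the member known for binding Raf kinases among many other clients, ran from 0.565 over 2.32 to 5.98 in low-RNA wells and from 0.735 over 3.59 to 8.38 in RNA-rich wells. Neither gene fell to 0 in any well.

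The remaining members were low in all wells. Ywhag, the gamma member, ran from 0 over a median of 0.860 to 4.05 in low-RNA wells and from 0.325 over 1.96 to 4.67 in RNA-rich wells. Ywhab, the beta member, reached 2.46 in low-RNA wells (median 0.772) and 3.30 in RNA-rich wells (median 0.947). Ywhah, the eta member, reached 2.20 in low-RNA wells (median 0.488) and 2.59 in RNA-rich wells (median 0.878). A molecule was seen in 41 of 45 low-RNA wells for Ywhag, 35 for Ywhab and 32 for Ywhah, and in 51, 50 and 50 of the 51 RNA-rich wells for the same genes in that order.

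Ordered by median in RNA-rich wells, the levels ran Ywhae, Ywhaq, Ywhaz, Ywhag, Sfn, Ywhab, Ywhah, and in low-RNA wells Sfn and Ywhag changed places. Ywhae exceeded Ywhaq in 47 of 51 RNA-rich wells, and Ywhaz exceeded Ywhag in 43. The other neighbours did not separate: Ywhaq exceeded Ywhaz in 23 of 51 wells, Ywhag exceeded Sfn in 28 and Ywhab exceeded Ywhah in 30. Sfn exceeded Ywhab in 34 of 51 wells, with a mean difference of 2.56 and an SD of 5.15. In low-RNA wells Ywhae exceeded Ywhaq in 40 of 45 and Ywhaz exceeded Sfn in 33, while Sfn exceeded Ywhag in 18.

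Sfn changed the make-up of the family in a minority of wells. Its share of the 14-3-3 molecules of a well ran from 0% over a median of 6.15% to 34.2% in low-RNA wells, and from 0.897% over 5.67% to 59.3% in RNA-rich wells. It was at least 25% in 3 low-RNA and 8 RNA-rich wells, and at least 50% in 2 RNA-rich wells, C02 and A09. Sfn was the most abundant member in 1 low-RNA and 9 RNA-rich wells, including G10, where Sfn and Ywhae tied at 82 molecules each. The summed level of the other 6 members was 14.2 ± 3.50 in low-RNA wells (SD, n = 45 wells) and 19.6 ± 3.77 in RNA-rich wells (SD, n = 51 wells). In C02 the other members summed to 17.6 and in A09 to 16, against a median of 19.3 over RNA-rich wells, so the high Sfn share of these wells went with a high Sfn level beside a somewhat lower sum of the others.

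**Figure D2:**
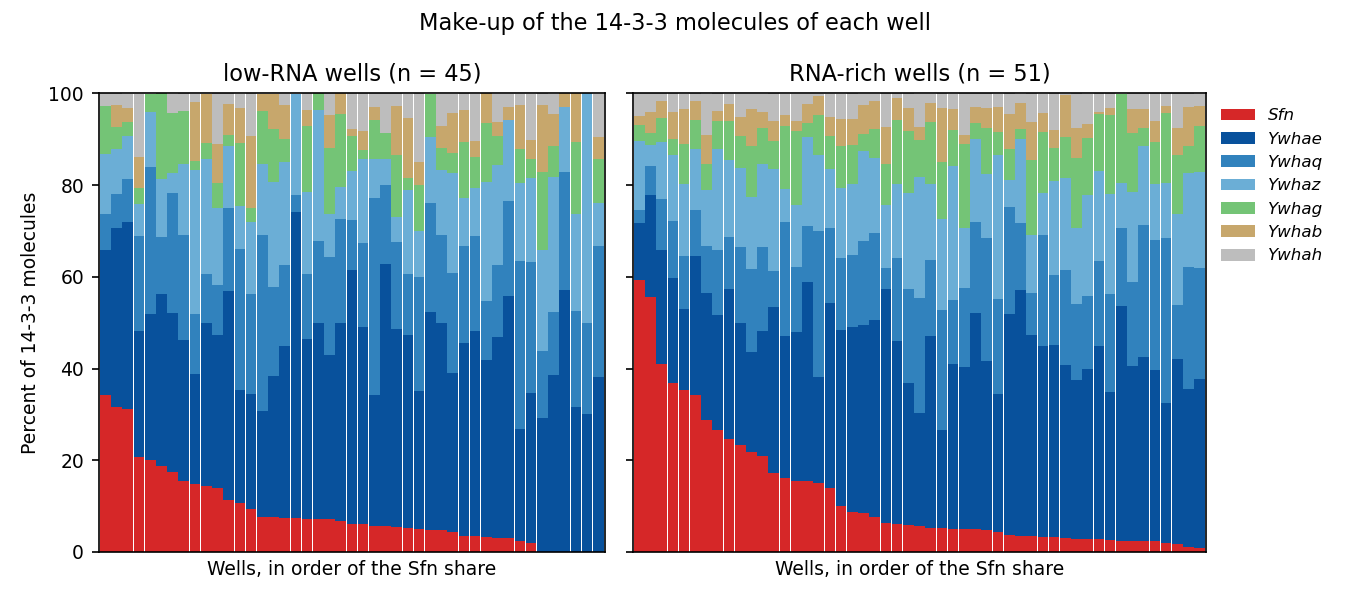
Percent of the 14-3-3 molecules of each well that came from each of the 7 genes, with low-RNA wells (left, n = 45) and RNA-rich wells (right, n = 51), each in order of the Sfn share. The Sfn share (red) reaches 34.2% in low-RNA and 59.3% in RNA-rich wells, and its medians are 6.15% and 5.67%.

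As fractions of the gene molecules, all 7 mean levels were lower in low-RNA wells than in RNA-rich wells, as were those of most genes. Mean levels were 1.39 ± 1.41 for Sfn in low-RNA wells (SD, n = 45 wells) and 3.66 ± 5.29 in RNA-rich wells (SD, n = 51 wells), a ratio of 0.378, or 2.64 times lower. Summed over the class, this was 1.36 Sfn molecules per 10000 in low-RNA wells (exact 95% Poisson interval 1.14 to 1.60) and 3.66 in RNA-rich wells (3.51 to 3.82), intervals that cover counting error only. The ratio of medians was 0.802, and the 5 highest RNA-rich wells alone held 45.4% of the summed level behind the RNA-rich mean.

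The low-RNA over RNA-rich ratio of mean levels was 0.583 for Ywhag, 0.644 for Ywhaz, 0.650 for Ywhah, 0.747 for Ywhab, 0.774 for Ywhaq and 0.778 for Ywhae. Of the 6 members with a mean level of at least 1 in either class, 3 (Sfn, Ywhag and Ywhaz) were at least 1.5 times lower in low-RNA wells, beside 43.7% of the 1673 genes that met the same minimum. None was at least 1.5 times higher, beside 10.6% of those genes. Ywhah did not meet the minimum. By medians Ywhag (0.438) and Ywhaz (0.648) were past 1.5 times lower and Sfn was not, beside 47.2% of 1476 genes. The median ratio over the 1673 genes was 0.699, which lies between the ratios of Ywhab, Ywhae and Ywhaq above it and those of Sfn, Ywhag, Ywhaz and Ywhah below it.

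The mitochondrial share of the total moved with these ratios. With mitochondrial genes and the ribosomal RNA feature Rn45s left out of the total, the median ratio over genes was 0.989, and the ratios became 1.02 for Ywhab and for Ywhaq, 1.05 for Ywhae, 0.870 for Ywhah, 0.867 for Ywhaz, 0.775 for Ywhag and 0.517 for Sfn. Sfn was then the only member past 1.5 times lower. With TMM library sizes the median ratio over genes was 0.581, and Ywhab (0.645), Ywhaq (0.646) and Ywhae (0.652) came past 1.5 times lower, with Sfn at 0.316. Divided by the spike-in total, which keeps the difference in RNA per well, the median ratio was 0.228, with Sfn at 0.111, Ywhab at 0.235, Ywhae at 0.246 and Ywhaq at 0.280. The direction for Ywhab, Ywhae and Ywhaq thus turned with the choice of total. By ratios of mean levels, Sfn stayed below the median gene under each of these totals. By ratios of medians, with all gene molecules as the total, Sfn at 0.802 lay above the median gene at 0.684. Fewer molecules captured and less RNA in the cell cannot be told apart for the low-RNA wells.

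The share of wells with an Sfn molecule was 86.7% of low-RNA and 100% of RNA-rich wells before depth was matched. Thinned to 8000 gene molecules per well, the expected shares were 58.5% in low-RNA and 65.5% in RNA-rich wells. Thinned to 20000, which 29 of the low-RNA wells reached, they were 87.7% and 85.1%. The order of the classes differed between these depths, but the depth of 20000 left out 16 low-RNA wells. The sets of wells thus differed along with the depth. The mitochondrial share, higher in low-RNA wells, was part of the total that was matched.

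The spread between RNA-rich wells was set against the spike-in RNAs, synthetic transcripts added to every chamber in the same solution. The squared coefficient of variation (CV) of 65 spike-ins was fitted as 3.23/mean + 0.00874, and a gene's noise ratio is its own squared CV over that fit at its mean. A gene was called above technical noise with a mean of at least 1 molecule and a ratio of at least 2, also without its highest well. Sfn, the member chosen for this spread, had a CV of 144% where the fit gave 29.3%, a ratio of 24.3, and 18.5 without well C02. It ranked 23rd of 7768 genes. It was the 1 member of 7 above technical noise, beside 7% of the 7768 genes and 32.2% of the 882 genes with a mean of at least 20 molecules.

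The other members lay close to the spike-in fit. Their ratios were 2.06 for Ywhaq (1.77 without its highest well), 1.78 for Ywhaz, 1.55 for Ywhag, 1.23 for Ywhab, 1.07 for Ywhah and 0.957 for Ywhae. The median over all 7768 genes was 1.36, so these 6 sat on both sides of a typical gene. Ywhaq and Ywhaz, with scaled means of 45.1 and 44.2 molecules per well, were as well sampled as Sfn with 41.9. Among the 343 genes with a mean within 1.5 times that of Sfn, the median ratio was 1.77, and 3 other genes had a ratio as large as Sfn: Trh at 42.1, S100a6 at 41 (18.6 without well D02) and Krt8 at 39.6, named after their values were seen. Trh encodes the precursor of thyrotropin-releasing hormone, S100a6 a calcium-binding protein and Krt8 a keratin of simple epithelia.

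**Figure D3:**
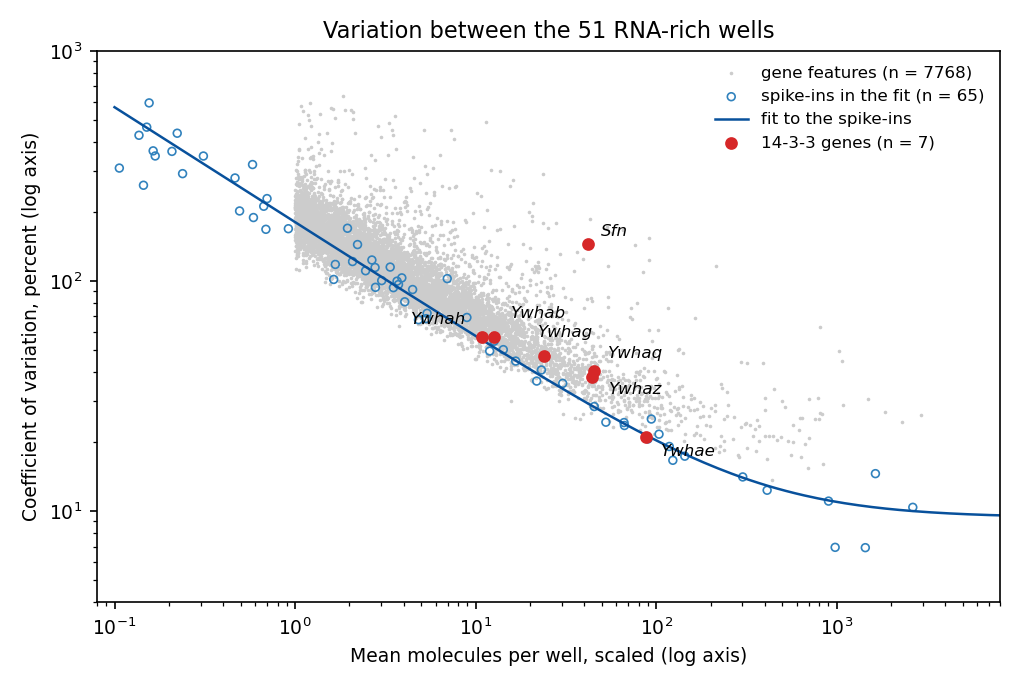
Coefficient of variation between the 51 RNA-rich wells (percent, log axis) against the mean number of molecules per well (log axis) for 7768 genes (grey), 65 spike-ins (open blue circles) with the fit to them (blue line) and the 7 14-3-3 genes (red). Sfn lies at 144% where the line is at 29.3%, while the ratios of squared CV to the line are 0.957 to 2.06 for the others.

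In low-RNA wells no member stood above the spike-ins. The ratio of Sfn was 1.01 there, with a mean of 3.11 scaled molecules per well and a technical CV of 101%, and the other members had 0.390 to 0.581. Of 2695 genes tested in these wells 0.594% were above technical noise and the median ratio was 0.473.

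High Sfn was more frequent in the keratin-led wells, which had been grouped without the 14-3-3 genes. In these 9 wells Sfn ran from 0.723 over a median of 8.28 to 20.1, and in the 40 ES cell-like RNA-rich wells from 0.201 over 1.08 to 25.6. The ranges overlapped, since the highest well of all, C02, was ES cell-like and the lowest keratin-led well, D02, had 0.723. D02 had Krt18 at 2.35 and the highest feeder marker sum of all wells, and without it the keratin-led wells ran from 4.48 over a median of 9.20 to 20.1 (n = 8 wells). Of the 10 RNA-rich wells with the most Sfn, 7 were keratin-led and 3 (C02, H05 and B07) ES cell-like. Sfn was the most abundant member in 6 of the 9 keratin-led wells, with G10 a tie with Ywhae, and in 3 of the 40 ES cell-like wells. Because the grouping used the other genes of the same cells, no test was made of this difference.

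The other members were closer in level between these wells than Sfn was. Their sum was 22.7 ± 3.69 in keratin-led wells (SD, n = 9 wells) and 19.3 ± 3.02 in ES cell-like wells (SD, n = 40 wells). Ywhae averaged 8.43 ± 1.32 in keratin-led and 7.59 ± 1.56 in ES cell-like wells. Ywhah averaged 1.39 ± 0.580 in keratin-led and 0.862 ± 0.477 in ES cell-like wells. In well E02, with its high feeder genes, Sfn was at 0.184, a single molecule, and Ywhab and Ywhah were at 0. In D02, with the higher feeder sum, Sfn was at 0.723, a count of 4 molecules, and Ywhab and Ywhah were each at 0.904.

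The marker sums of several lists differed between keratin-led and ES cell-like wells. ES cell markers had a median sum of 30.2 (20.7 to 97.0) in keratin-led and 115 (36.5 to 234) in ES cell-like wells. Feeder fibroblast markers had a median sum of 40.7 (29.8 to 175) in keratin-led and 8.27 (4.44 to 39.2) in ES cell-like wells, from 19 of 22 genes in both, with Thy1, Postn and Lum at 0. Trophectoderm markers, which include the keratins, had a median sum of 46.7 (3.07 to 73.8) in keratin-led and 2.92 (1.88 to 20.6) in ES cell-like wells. Elf5 and Hand1 of the 12 genes were at 0 in both. Primitive endoderm markers had a median sum of 5.45 in keratin-led and 1.11 in ES cell-like wells. Sparc, with medians of 4.92 in keratin-led and 0.910 in ES cell-like wells, weighs most in this sum. Sox17 and Sox7 were at 0 in both, and Gata6, Pdgfra and Lama1 also at 0 in keratin-led wells. The part of any of these cell types in the Sfn levels was not tested. Within the 40 ES cell-like wells, without any keratin-led well, the noise ratio of Sfn was 26.9, and 10.9 without C02.

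The genes whose order of levels over RNA-rich wells was most like that of Sfn were Tnfrsf12a, Krt18, Tagln2, Tubb6 and Sparc, out of 1535 genes with a mean level of at least 1. Tnfrsf12a, the receptor of the cytokine TWEAK, had a Spearman rho with Sfn of 0.62 over the 51 RNA-rich wells, 0.45 over the 40 ES cell-like wells and 0.06 over the 45 low-RNA wells. Krt18, the keratin that pairs with Krt8, had 0.60, 0.41 and −0.24 over the same sets. Tagln2, an actin-binding protein, had 0.60, 0.36 and 0.13. All of these were lower in the ES cell-like wells taken alone, and in the low-RNA wells, with a median of 2 Sfn molecules, none exceeded 0.13.

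Tubb6, a beta tubulin, had a rho of 0.59 over RNA-rich wells and 0.34 over ES cell-like wells. Sparc, a secreted matrix protein, had 0.55 over RNA-rich wells and 0.45 over ES cell-like wells. Over the 1535 genes the median rho with Sfn was 0.01, with the 5th percentile at −0.29 and the 95th at 0.36. These correlations describe wells of 1 culture that share a chip. The rho of Sfn with the total of gene molecules was 0.23 and with the mitochondrial percentage −0.30 over RNA-rich wells. The part of depth in these correlations was not tested. Without the wells of the highest feeder sums, D02 and E02, a choice made after the data were seen, the rho of Sfn with Tnfrsf12a was 0.66, with Krt18 0.65, with Tagln2 0.61, with Tubb6 0.56 and with Sparc 0.67 (n = 49 wells).

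**Figure D4:**
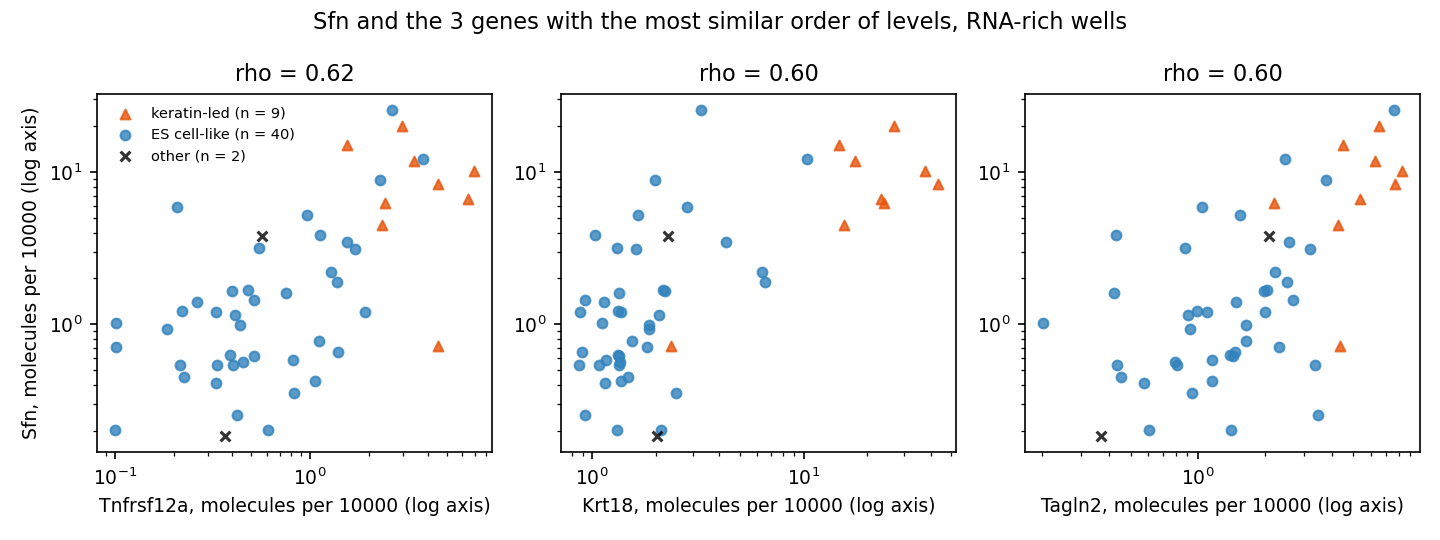
Sfn against Tnfrsf12a, Krt18 and Tagln2 in the 51 RNA-rich wells, all in molecules per 10000 gene molecules on log axes, with keratin-led wells as orange triangles (n = 9), ES cell-like wells as blue circles (n = 40) and the other wells as black crosses (n = 2). The rho values are 0.62, 0.60 and 0.60, and 8 of the 9 keratin-led wells lie above the RNA-rich Sfn median of 1.22.

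No shared order of levels was seen among the 14-3-3 genes. Apart from Sfn, the members had noise ratios of 0.957 to 2.06 in RNA-rich wells and 0.390 to 0.581 in low-RNA wells. Whether so small a spread beyond the spike-ins hid a shared order was not tested. Over RNA-rich wells the 21 pairs had rho values of −0.10 to 0.39 with a median of 0.12, and over low-RNA wells −0.34 to 0.30 with a median of 0.04. The highest pair in both classes was Ywhag with Ywhaq, at 0.30 in low-RNA and 0.39 in RNA-rich wells. Sfn had its highest values with Ywhab (0.36), Ywhaz (0.34) and Ywhah (0.32) in RNA-rich wells, and −0.05, −0.23 and −0.03 with the same genes in low-RNA wells. In the 40 ES cell-like wells its rho with Ywhah was 0.05. At the counts of these genes, correlations of this size are not a finding. Sfn against the sum of the other members had a rho of −0.16 in low-RNA and 0.27 in RNA-rich wells.

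**Figure D5:**
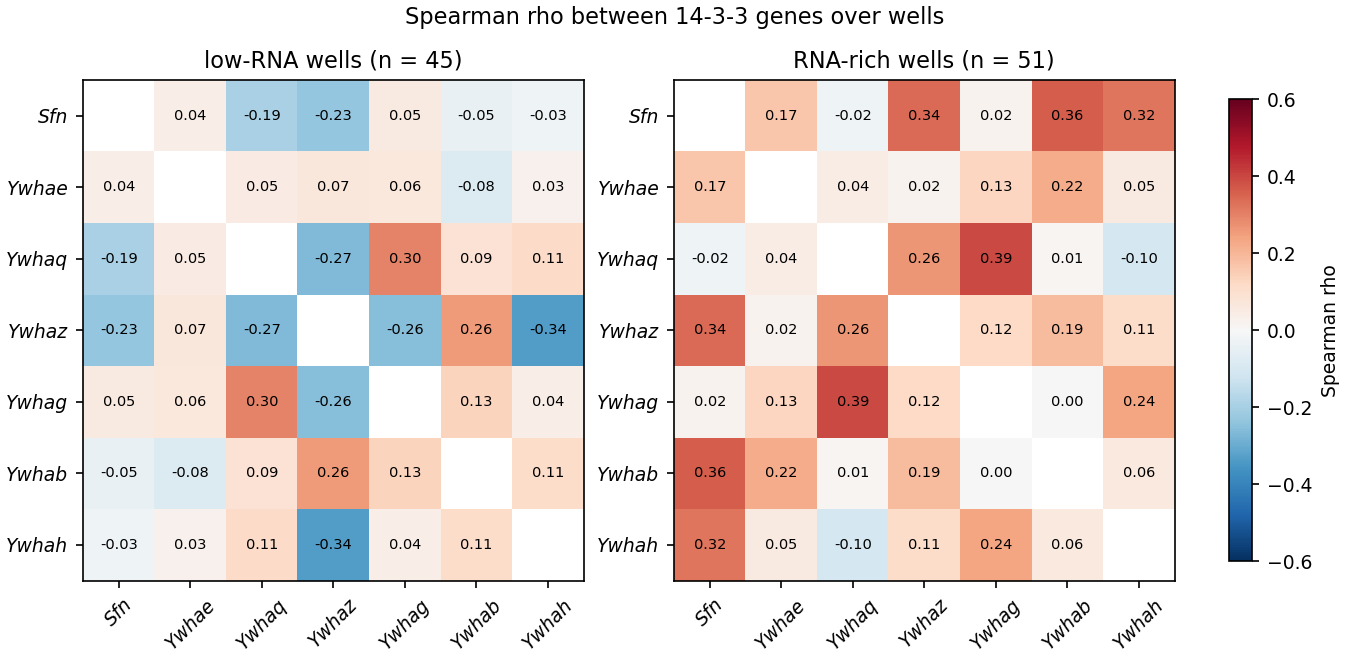
Spearman rho of levels between each pair of 14-3-3 genes over low-RNA wells (left, n = 45) and RNA-rich wells (right, n = 51), from blue (negative) to red (positive). The pair Ywhag and Ywhaq is the highest in both, at 0.30 in low-RNA and 0.39 in RNA-rich wells.

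The other members had different most alike genes over RNA-rich wells. Ywhab was closest to Fermt2 (0.56), an integrin activator, Ywhag to the splicing factor Srsf1 (0.45), and Ywhaz to Bzw1 (0.59) and Hnrnpa2b1 (0.58), an RNA-binding protein. Ywhae was closest to Rbx1 (0.51), a subunit of cullin ubiquitin ligases of which only 7.68% of molecules came from uniquely mapped reads, and to Exosc8 (0.49), a subunit of the RNA exosome. Ywhah was closest to Ptges3 (0.51), an Hsp90 co-chaperone, and Ywhaq to Nsfl1c (0.44), a cofactor of the p97 ATPase. The second gene for Ywhah was Tagln2 (0.49), which was also among the 5 for Sfn. Over the low-RNA wells the same pairs ran from −0.14 for Ywhah with Ptges3 to 0.24 for Ywhah with Tagln2.

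Gene lists around the 14-3-3 proteins gave a background for Sfn. Epithelial genes, the class in which Sfn is best known, had a median noise ratio of 2.41, and 13 of 26 measured members were above technical noise, beside 7% of all genes tested and 32.2% of those with a mean of at least 20 molecules. Their summed level had a rho with Sfn of 0.62 over RNA-rich wells, 0.49 over ES cell-like wells and −0.04 over low-RNA wells. Krt18 and Krt8 weigh most in this sum, as in that of the trophectoderm markers. Over the 9 listed genes with a mean level of at least 1, the median rho with Sfn over RNA-rich wells was 0.37. Krt18 averaged 3.42 ± 1.65 in low-RNA and 5.73 ± 9.50 in RNA-rich wells, with a noise ratio of 47.4. Cd9, a tetraspanin of the cell surface, had a noise ratio of 4.04 and a rho with Sfn of 0.44. Spint2, an inhibitor of serine proteases, had a ratio of 1.54 and a rho of 0.32, and Anxa1, an annexin, had a ratio of 19.9 and a rho of 0.18.

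Genes of the p53 response did not follow Sfn. Their sum had a rho with Sfn of −0.18 over low-RNA and −0.02 over RNA-rich wells, and 6 of 18 measured genes were above technical noise, beside the same 7% and 32.2%. Trp53 itself, which encodes p53, had a noise ratio of 1.15. Cdkn1a, the cell cycle inhibitor p21, had a noise ratio of 30.4, but 3.47 without well E02, where it reached its highest level of 24.8, and a rho with Sfn of 0.13. Mdm2, the ubiquitin ligase that degrades p53, had a ratio of 5.59 (2.83 without well A03) and a rho of 0.19, and Ccng1, cyclin G1, had 3.76 and 0.04. Bax, the apoptosis effector, had a ratio of 1.77 and a rho with Sfn of −0.47.

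Clients and partners of 14-3-3 proteins, 40 listed genes, had a median sum of 13.7 in low-RNA and 11.5 in RNA-rich wells, and the 30 listed kinases that phosphorylate binding sites on clients had 5.85 in low-RNA and 8.28 in RNA-rich wells. None of 28 measured client and partner genes was above technical noise, beside 7% of all genes tested, and their sum had a rho with Sfn of −0.04 over RNA-rich wells. Larp1, an RNA-binding protein downstream of mTOR, averaged 5.90 ± 3.44 in low-RNA and 1.50 ± 0.826 in RNA-rich wells, 3.93 times higher in low-RNA wells. Its medians of 5.10 in low-RNA and 1.30 in RNA-rich wells lay further apart than those of the list's sum, in which it weighs heavily. Bax, of the same list, had a ratio of low-RNA over RNA-rich mean levels of 0.566. Cdc25a, the phosphatase that activates cyclin-dependent kinases, averaged 0.852 ± 0.756 in low-RNA and 0.922 ± 0.616 in RNA-rich wells. Of 19 measured kinase genes, 3 were above technical noise, beside the same 7%: Pim2 at 5.75, Akt1 at 5.30 (2.30 without well D02) and Sgk1 at 2.48. Their rho with Sfn was 0.08, −0.05 and 0.07.

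Genes of G2 and M phase, the stage at which Sfn is known to act, had a median noise ratio of 1.55, and 8 of 20 members were above technical noise, beside 7% of all genes and 32.2% of the better sampled ones. Their summed level had a rho with Sfn of −0.01 over low-RNA and −0.04 over RNA-rich wells. Ccnb1, cyclin B1, had a noise ratio of 3.34 and a rho with Sfn of −0.11, and only 13.1% of its molecules came from uniquely mapped reads. Cdk1, its kinase partner, had 3.95 (2.49 without well H07) and 0.05, and Top2a, a topoisomerase of dividing cells, had 3.55 and 0.06.

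ES cell markers ran the other way from Sfn over RNA-rich wells, with a rho of −0.36 for their sum (−0.46 without D02 and E02), and −0.24 both over ES cell-like wells and over low-RNA wells. Tdgf1, a co-receptor for Nodal, had a rho with Sfn of −0.36, Dppa5a, which binds RNA in pluripotent cells, −0.32, and Zfp42, a zinc finger protein of naive ES cells, −0.26. Feeder fibroblast markers had a rho of 0.33 with Sfn over RNA-rich wells, 0.45 without D02 and E02 and 0.09 over ES cell-like wells, with Tagln at 0.46 and Fn1 at −0.12 over RNA-rich wells. The sum of trophectoderm markers, in which Krt8 and Krt18 weigh most, had a rho of 0.61 with Sfn over RNA-rich and 0.37 over ES cell-like wells. That of primitive endoderm markers, with Sparc as the highest, had 0.53 over RNA-rich and 0.41 over ES cell-like wells.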

How the data were processed

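Per the file headers, the authors deposited counts of cDNA molecules per gene and well, a read of several matches being placed at the most 5′ exonic of them. Bowtie and mm10 (GRCm38) are named in the submitters' processing notes, and their versions are not given in the sources used here. The count of molecules from uniquely mapped reads is also the authors' deposited value. Columns not used numbered 0. No depth in reads was used, and intervals cover counting error only.

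From the counts, levels, ratios, Spearman correlations and a spike-in noise fit (gamma, identity link, mean of 0.1 or more per spike-in) were computed in Python 3.11.15 with numpy 2.4.6, scipy 1.17.1 and statsmodels 0.14.6. Wells were grouped by hierarchical clustering with Ward linkage (scipy) into 4 clusters, the number with the highest mean silhouette. The grouping used 10 principal components (scikit-learn 1.9.0) of 500 variable genes, without the 14-3-3 genes. The TMM alternative used edgeR 4.0.16. The noise fit was tested on counts simulated from the same fitted form, with the same expected spike-in total in every well. That test does not show how well the form suits these wells. No p-value was computed, since all wells are 1 culture.

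The members and lists were chosen with earlier results of these data known. Named genes are the 7 members, the 3 genes (5 for Sfn) with the highest rho to each, and from each list the 4 highest and up to 4 most variable genes.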

Additional observations from a re-analysis of the deposited data

How the results depend on the processing

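No paired analysis was possible because each column belongs to both library forms of a cell and no groups were tested. Leaving out mitochondrial genes and Rn45s turned the low-RNA over RNA-rich ratio to 1.02 for Ywhab, 1.05 for Ywhae and 1.02 for Ywhaq. The ratio of Sfn was 0.802 by medians. With a minimum level of 0.2 in place of 1, 2062 genes in place of 731 were at least 1.5 times lower in low-RNA wells and 654 in place of 177 higher. Genes above technical noise numbered 544 as reported, 947 by the spike-in total, 1450 with no normalization, 118 thinned to 50000 molecules and 316 in ES cell-like wells. Sfn, on whose spread the family was selected, stayed above technical noise under every other normalization, filter and set of RNA-rich wells tried. Its ratios there ran from 11.8 (thinned) to 30.5 (spike-in total). These settings reuse the wells of the selection and are not independent support. In low-RNA wells, a setting added after the data were seen, the ratio of Sfn was 1.01. Ywhaq (3.00) and Ywhaz (3.73) passed by the spike-in total, and with no normalization they and Ywhae (13.6), Ywhag (3.68) and Ywhab (3.64) did so too. Over all 7 members, ratios of low-RNA over RNA-rich levels kept their direction and their side of 1.5 times in 43 alternatives, lost it in 5, gained it in 6 and turned in the 3 above. Without wells D02 and E02, also added later, Sfn had a noise ratio of 24.2 and a ratio of 0.365.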
